A study of Rattus norvegicus with 91 samples.

Results

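The genes described here are those of myelin and of the oligodendrocyte lineage, the cells that make myelin in the central nervous system. A list of 33 genes was taken, and every probe set whose platform annotation gives exactly 1 gene symbol equal to a listed gene was used. This rule found 47 probe sets of 31 genes, of 20826 single-gene probe sets of 14217 genes on the array. Tf, the iron carrier transferrin, shared its probe set's name with another gene and was not used, and no probe set was named for Gpr17, a receptor of committed precursors. Of the 47 probe sets, 44 of 30 genes passed the filter on low signal and were tested. Both probe sets of Olig2, a transcription factor of the lineage, and 1 of the 2 of Ugt8 lay below it in all 10 lines.

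The study asked how gene expression differs, in the part of the midbrain called the ventral tegmental area, which holds dopamine neurons, between rat lines bred for high and for low alcohol consumption. The arrays were 91, 1 per animal, from 5 line pairs: 8 HAD1 and 10 LAD1, 8 HAD2 and 9 LAD2, 9 P and 10 NP, 10 AA and 10 ANA, and 8 sP and 9 sNP. In each pair the line bred for high consumption is named first and its low-consumption line second. The sources used here do not state age, sex, treatment or alcohol exposure, and each line is 1 bred population, so a line difference cannot be told apart from any other difference between the populations. Signals are log2 values from the authors' RMA summary, a difference is the signal of the high-consumption line less that of the low-consumption line of its pair, and 1 on this scale is a doubling. Levels were not compared between pairs or between probe sets.

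Oligodendrocytes arise from proliferating precursors that carry Pdgfra and Cspg4, pass through a newly formed stage and then wrap axons in a compacted membrane. Compact myelin is held together by proteins such as Mbp and Mobp and is rich in galactolipids made by Ugt8, Fa2h and Gal3st1, and the transcription factors Olig1, Olig2, Sox10 and Nkx2-2 direct the lineage. The ventral midbrain is crossed by many myelinated fibres, and its dissected tissue holds these cells beside neurons and astrocytes. In such bulk tissue, fewer cells of a type and less RNA per cell cannot be told apart.

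Several arrays stood apart. Clustering of the whole profiles into 5 sets placed the array labelled AA 1 with the P and NP arrays, and the arrays labelled AA 19 and ANA 20 with the sP and sNP arrays. In the order of the deposited columns each labelled pair filled 1 block, of 17, 18, 19, 20 and 17 columns, while the sets filled blocks of 17, 18, 20, 17 and 19. Whether labels were displaced was not tested, so the called AA/ANA results and the AA/ANA counts are given also without these 3 arrays. A clustering of the signal distributions alone set the same 3 arrays apart and placed sP 8 and sNP 2 with the AA and ANA arrays. Th, the dopamine synthesis enzyme that marks the dissected region, lay between 9.12 and 14.95 in P and between 8.23 and 14.88 in NP, with P 10 and NP 8 the lowest, and between 13.3 and 15.3 in the other 8 lines.

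Most myelin and lineage genes did not pass the test in any pair. A probe set was called at an adjusted p under 0.05 from limma with Benjamini-Hochberg adjustment over all 15152 probe sets tested. In HAD1 against LAD1, 4 of the 44 were called (3 higher and 1 lower), where 4.09% of all probe sets were (327 higher and 293 lower). In HAD2 against LAD2, 2 of the 44 were called (both lower), where 5.23% of all were (466 higher and 326 lower). In AA against ANA, 4 of the 44 were called (3 higher and 1 lower), where 3.17% of all were (266 higher and 215 lower). The same 4 of the 44 were called in AA against ANA without the 3 arrays that stood apart, where 3.86% of all were (304 higher and 281 lower). In P against NP and in sP against sNP, limma called 0 of the 44 and 0% of all, and 1 of the 44 had an unadjusted p under 0.05 in each of these 2 pairs, as did 5.74% and 1.13% of all probe sets. This fit shares 1 spread over all lines, though the median SD within a line was 0.18 in P/NP and 0.11 in sP/sNP. Fitted alone, each of these 2 pairs also had 0 of the 44 and 0% of all called. Without sP 8 and sNP 2, limma called 0 of the 44 and 0% of all in sP against sNP. The called genes were Cldn11, Enpp6, Sh3tc2, Mobp, Enpp2, Opalin and Car2. Sh3tc2 was called lower in the high-consumption line in 3 pairs, and its difference in sP/sNP was 0.20 in the other direction. Its HAD2/LAD2 call was lost when any 1 of 11 of the 17 arrays of that pair was left out (limma, adjusted p up to 0.146). Of all probe sets, 0.0132%, which is 2 of them, were called lower in at least 3 pairs. A share of 0.132% was called in either direction in at least 3.

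**Figure D1:**
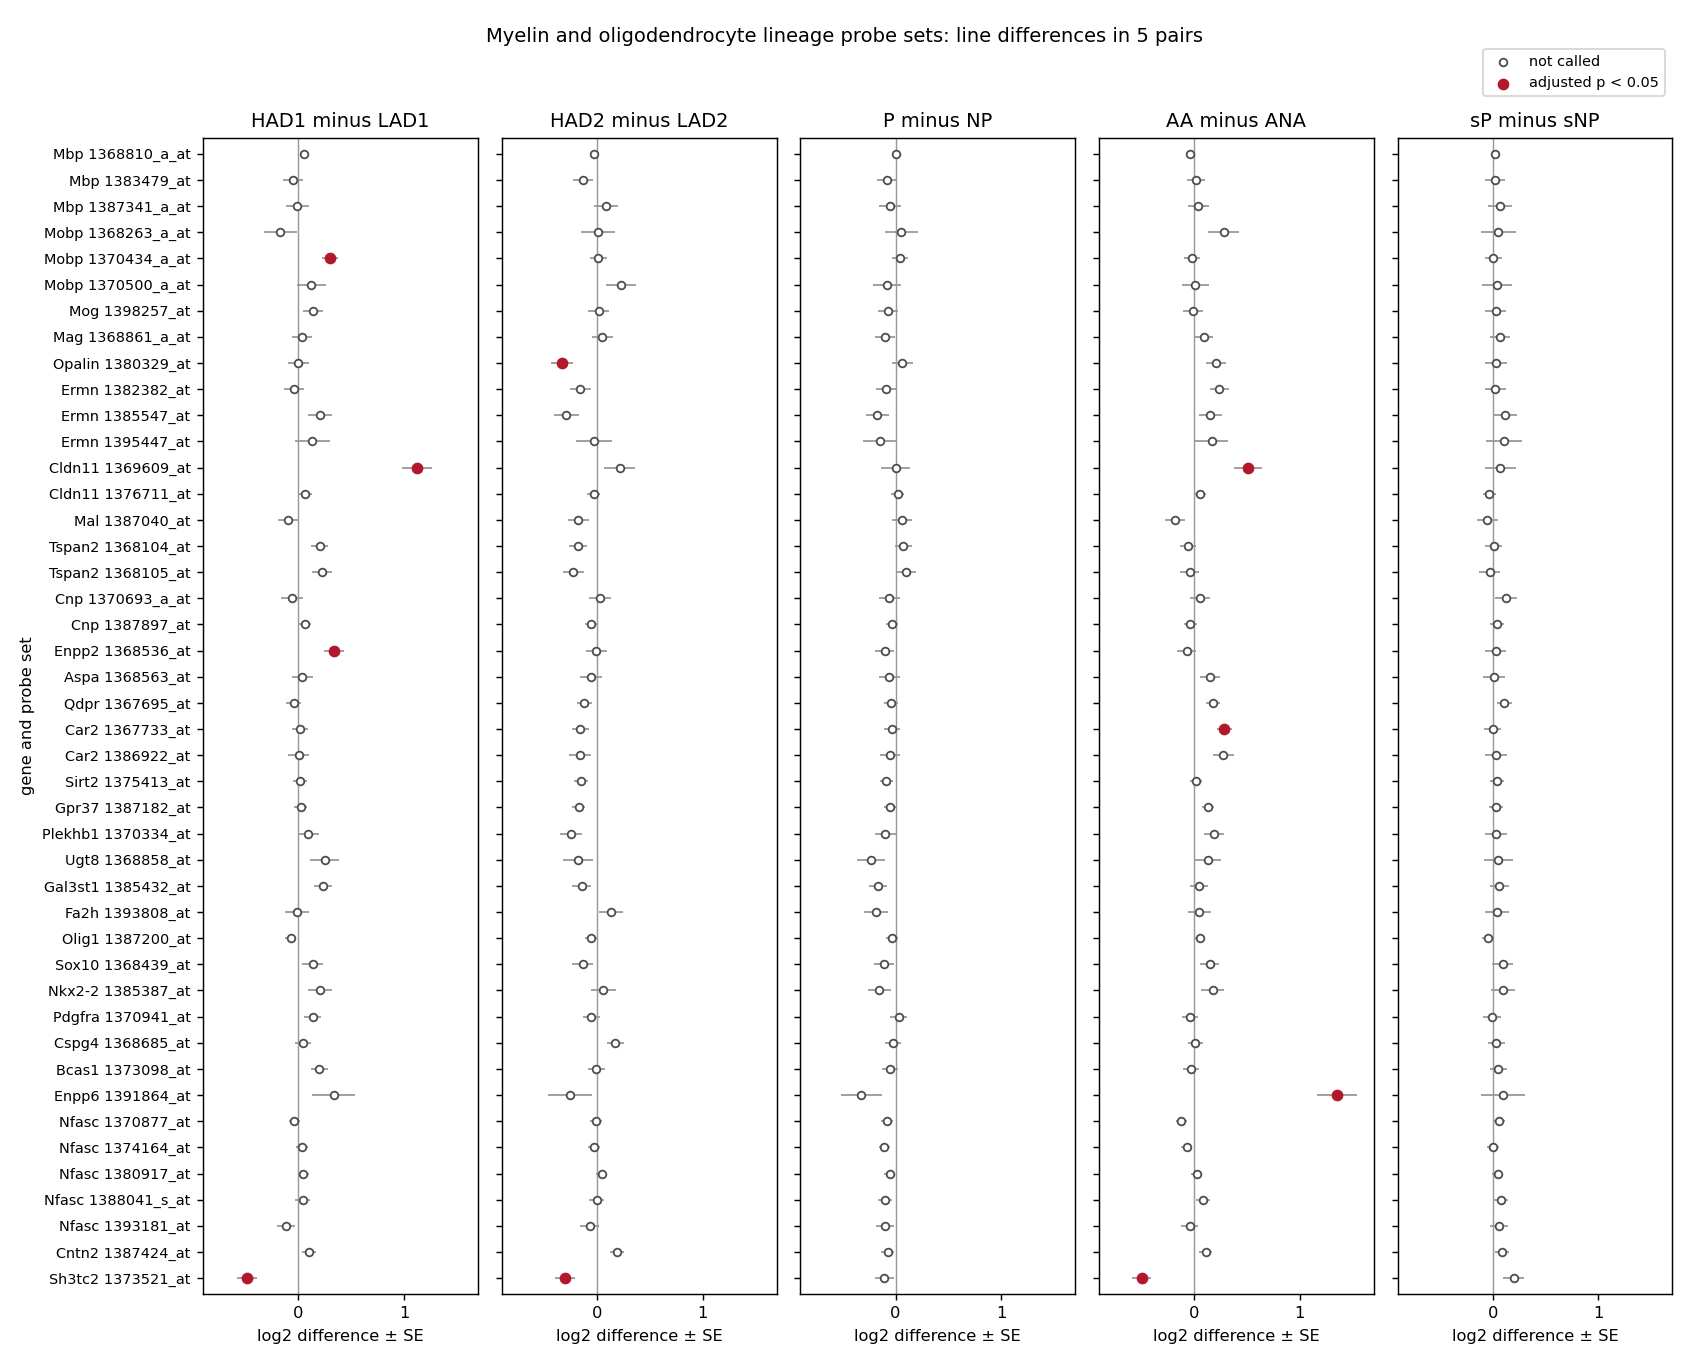
Log2 difference, high-consumption minus low-consumption line, with its standard error (bars) for the 44 tested probe sets (rows) in the 5 line pairs (panels). Filled points are called, and the widest are Enpp6 in AA minus ANA (1.3504) and Cldn11 1369609_at in HAD1 minus LAD1 (1.13), while most open points lie within 0.25 of zero.

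Among the structural and surface proteins of myelin (17 probe sets of 9 genes), Cldn11 had the widest difference. Cldn11 encodes the claudin that forms the tight junctions between the turns of the sheath. At probe set 1369609_at the HAD1 signals were lowest 7.93, median 8.14 and highest 8.32, against lowest 6.37, median 7.02 and highest 7.77 in LAD1. All 8 HAD1 arrays lay above all 10 LAD1 arrays, and the mean difference was 1.13 ± 0.14 (SE; limma, adjusted p = 5.12e-09). The LAD1 mean of 7.001 lies just below the floor of the filter, 7.02.

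The same Cldn11 probe set was higher in arrays labelled AA than in those labelled ANA. Its AA signals were lowest 7.63, median 8.43 and highest 9.18, against lowest 7.53, median 7.88 and highest 8.48 in ANA. The lines overlapped, with 9 of 10 AA arrays above the ANA median, and the difference was 0.51 ± 0.13 (SE; limma, adjusted p = 0.0147). AA 1 was the highest AA array and ANA 20 the highest ANA array. Without the 3 arrays that stood apart the difference was 0.47 (limma, adjusted p = 0.0298), and without AA 1 alone it was no longer called (limma, adjusted p = 0.0621). Nor was it called with the pair fitted alone (limma, adjusted p = 0.0959).

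In the remaining pairs this probe set did not pass the test. The HAD2 signals were 6.99, 7.27 and 7.95 (lowest, median, highest), against 6.88, 7.22 and 7.41 in LAD2. The P signals were 8.58, 9.14 and 9.62, against 8.42, 9.05 and 9.93 in NP, and the sP signals 8.45, 8.56 and 9.08, against 8.35, 8.57 and 8.74 in sNP. The lines overlapped in each of these pairs, with 3 of the 8 HAD2 arrays above every LAD2 array, and the differences were 0.22, 0.00041 and 0.07. The HAD1/LAD1 difference exceeded the HAD2/LAD2 difference by 0.91 ± 0.20 (SE; limma, adjusted p = 0.00129), a contrast in which 3 of the 44 and 4.13% of all probe sets were called.

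The second Cldn11 probe set, 1376711_at, gave another picture. Its HAD1 signals were lowest 14.31, median 14.42 and highest 14.50, against lowest 14.17, median 14.34 and highest 14.51 in LAD1. The HAD1 range lay inside the LAD1 range, and the difference was 0.07 (limma, adjusted p = 0.783). In AA its signals were 14.43, 14.54 and 14.73, against 14.31, 14.48 and 14.74 in ANA, a difference of 0.05, or 0.06 without the 3 arrays. Its other differences were -0.03 in HAD2/LAD2, 0.02 in P/NP and -0.03 in sP/sNP. The 2 probe sets thus disagree on Cldn11, and the files do not give which of its transcripts each reads.

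The RefSeq promoter of Cldn11 is shown because 1369609_at was the only probe set of the 44 above zero in all 5 pairs, in P/NP by 0.00041 only. The other Cldn11 probe set was above zero in 3 of 5 pairs. How many of all probe sets were above zero in all 5 was not counted. The window runs from 250 bases before to 50 after the start, at chr2:114149490-114149789 on the minus strand of GRCr8, and holds neither the core letters of SOX factor sites (ACAAAG, or CTTTGT on the other strand) nor the E-box form CAGCTG.
Cldn11 promoter: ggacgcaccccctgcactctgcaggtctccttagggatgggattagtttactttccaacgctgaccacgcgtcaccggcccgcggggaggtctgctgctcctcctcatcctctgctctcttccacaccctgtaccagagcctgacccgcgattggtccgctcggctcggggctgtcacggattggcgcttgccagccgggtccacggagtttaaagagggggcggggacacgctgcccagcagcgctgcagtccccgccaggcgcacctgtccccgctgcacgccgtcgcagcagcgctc

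Mobp, a small basic protein of compact myelin, has 3 probe sets, and 1 was called. At 1370434_a_at the HAD1 signals were lowest 14.44, median 14.63 and highest 14.70, against lowest 14.08, median 14.29 and highest 14.65 in LAD1. All 8 HAD1 arrays lay above the LAD1 median and 4 above every LAD1 array, and the difference was 0.30 ± 0.077 (SE; limma, adjusted p = 0.00858). In the other pairs this probe set differed by 0.01 in HAD2/LAD2 and 0.04 in P/NP, and by -0.02 in AA/ANA and 0.0065 in sP/sNP.

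The other Mobp probe sets differed in sign in HAD1/LAD1. At 1368263_a_at the HAD1 signals were 13.12, 13.20 and 13.34, against 13.16, 13.39 and 13.66 in LAD1, a difference of -0.17 (limma, adjusted p = 0.8). At 1370500_a_at the HAD1 signals were 9.75, 9.80 and 9.91, against 9.47, 9.69 and 10.05 in LAD1, a difference of 0.12 (limma, adjusted p = 0.858). The lines overlapped at both. The other 4 pairs gave 0.01 to 0.28 at 1368263_a_at and -0.08 to 0.23 at 1370500_a_at, and none was called.

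Opalin, a transmembrane protein of mature oligodendrocytes, was lower in HAD2 than in LAD2. The HAD2 signals were lowest 10.56, median 10.79 and highest 10.99, against lowest 10.79, median 11.14 and highest 11.38 in LAD2. All 8 HAD2 arrays lay below the LAD2 median, 3 of them below every LAD2 array, and the difference was -0.33 ± 0.10 (SE; limma, adjusted p = 0.0385). The call was lost when any 1 of 10 of the 17 arrays of the pair was left out, with adjusted p up to 0.0923. The other pairs gave differences of -0.0012 (HAD1/LAD1), 0.06 (P/NP), 0.21 (AA/ANA) and, in sP/sNP, 0.03. None of these was called, nor was the AA/ANA difference of 0.23 without the 3 arrays (limma, adjusted p = 0.282).

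Tspan2, a tetraspanin of oligodendrocyte membranes, was not called in any pair, but its 2 probe sets differed between the 2 HAD/LAD pairs. At 1368104_at the HAD1 signals were 12.85, 13.05 and 13.20, against 12.55, 12.85 and 13.22 in LAD1, and the HAD2 signals were 13.09, 13.29 and 13.41, against 13.29, 13.39 and 13.70 in LAD2. At 1368105_at the HAD1 signals were 11.25, 11.45 and 11.63, against 10.79, 11.24 and 11.64 in LAD1, and the HAD2 signals were 11.42, 11.92 and 12.01, against 11.91, 12.02 and 12.36 in LAD2. The lines overlapped in all 4 comparisons, with 7 and 8 of the 8 HAD1 arrays above the LAD1 median and 7 and 8 of the 8 HAD2 arrays below the LAD2 median. The HAD1/LAD1 difference minus the HAD2/LAD2 difference was 0.38 ± 0.12 (SE; limma, adjusted p = 0.0366) at 1368104_at and 0.45 ± 0.14 (SE; limma, adjusted p = 0.0415) at 1368105_at. These calls were lost when any 1 of 11 and of 15 of the 35 arrays was left out, with adjusted p up to 0.0719 and 0.107.

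The remaining structural genes had no called probe set. Mbp, the basic protein that brings the cytoplasmic faces of compact myelin together, gave differences between -0.13 and 0.09 over its 3 probe sets and 5 pairs. At its probe set 1368810_a_at the HAD1 signals were 15.07, 15.13 and 15.16, against 14.86, 15.08 and 15.20 in LAD1. Mog and Mag, glycoproteins on the outer and on the axon-facing surface of the sheath, lay between -0.10 and 0.14. Mal, which takes part in the traffic of myelin membrane, lay between -0.18 and 0.06 and was below zero in 4 of 5 pairs. Ermn, a cytoskeletal protein of mature oligodendrocytes, lay between -0.29 and 0.24 over 3 probe sets, and its probe set 1395447_at was below the filter's floor on every HAD2 and LAD2 array.

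**Figure D2:**
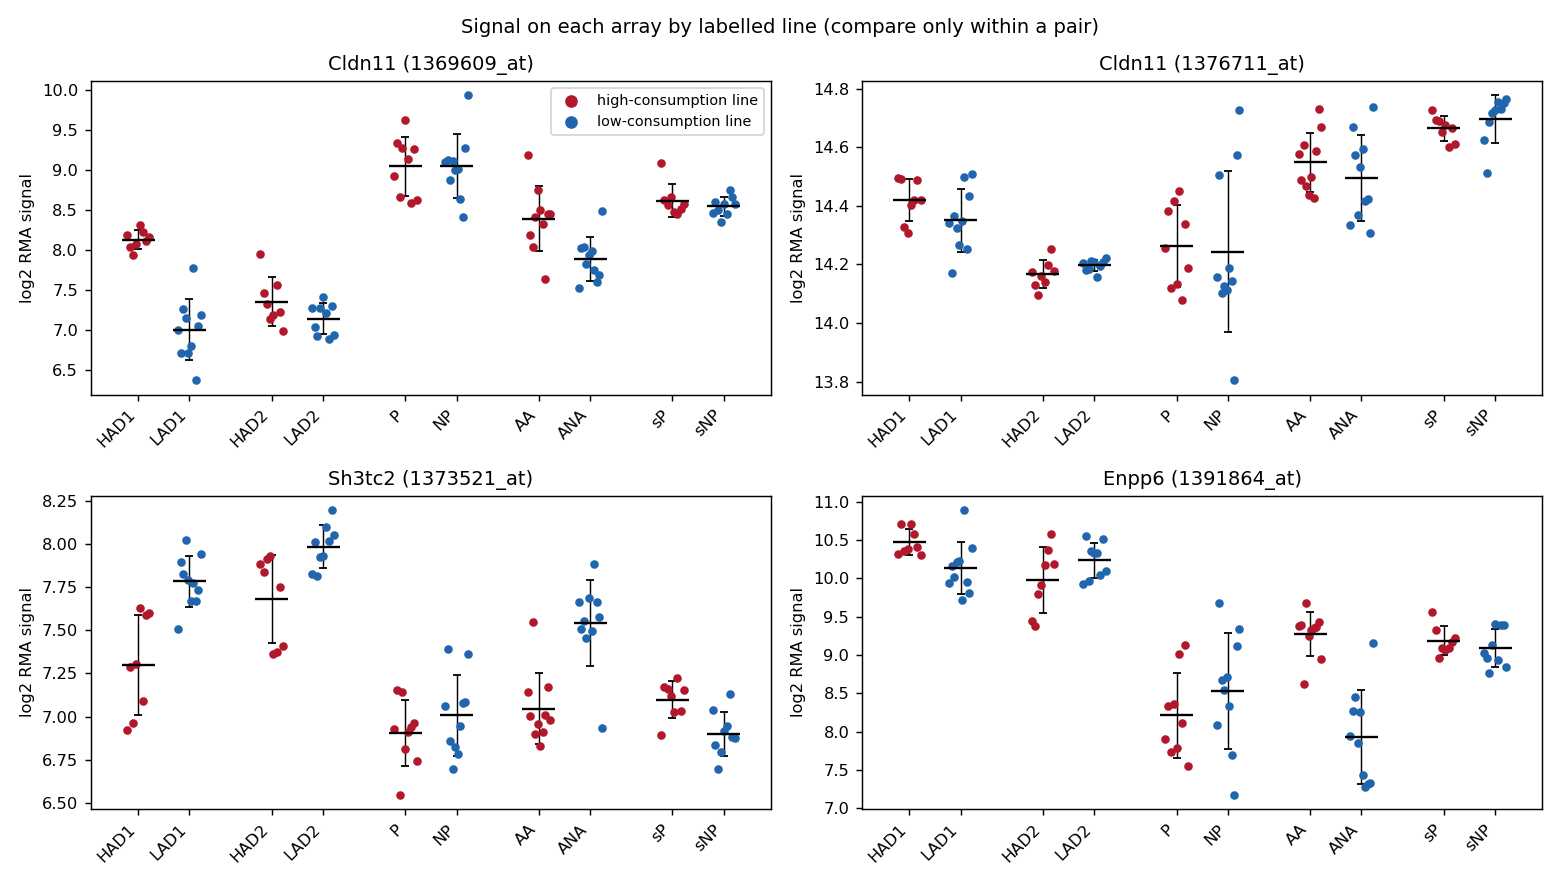
Log2 RMA signal on each array for both probe sets of Cldn11, for Sh3tc2 and for Enpp6, by labelled line, with the line's mean and SD (bars). Points of HAD1 and LAD1 do not overlap at Cldn11 1369609_at and overlap at 1376711_at. In Cldn11 1369609_at and Sh3tc2 the array ANA 20 (8.48 and 6.93) lies apart from the other ANA arrays, and in Enpp6 it is the highest of them (9.16).

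The enzymes and signalling proteins of oligodendrocytes (10 probe sets of 8 genes) held 2 called genes. Enpp2, or autotaxin, which makes the signalling lipid lysophosphatidic acid, was higher in HAD1 than in LAD1. The HAD1 signals were lowest 13.30, median 13.57 and highest 14.02, against lowest 12.91, median 13.21 and highest 13.65 in LAD1. All 8 HAD1 arrays lay above the LAD1 median and 3 above every LAD1 array, and the difference was 0.34 ± 0.096 (SE; limma, adjusted p = 0.022). The call was lost without HAD1 21, HAD1 22, HAD1 23, LAD1 32 or LAD1 38, with adjusted p up to 0.121, and when the pair was fitted alone (limma, adjusted p = 0.0734). Its other differences were -0.0072 in HAD2/LAD2 and -0.10 in P/NP, with -0.07 in AA/ANA and 0.03 in sP/sNP.

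Car2, the carbonic anhydrase that oligodendrocytes share with other cells, was higher in arrays labelled AA. At 1367733_at the AA signals were lowest 13.54, median 13.68 and highest 13.94, against lowest 13.13, median 13.44 and highest 13.73 in ANA. All 10 AA arrays lay above the ANA median, 3 of them above every ANA array, and the difference was 0.29 ± 0.071 (SE; limma, adjusted p = 0.00844). It was 0.29 without the 3 arrays that stood apart (limma, adjusted p = 0.00969), and lost its call when the pair was fitted alone (limma, adjusted p = 0.0512).

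At the second Car2 probe set, 1386922_at, the AA signals were 12.24, 12.56 and 13.45, against 12.02, 12.31 and 12.72 in ANA. The difference, 0.28, did not pass the test (limma, adjusted p = 0.107). AA 1 was the highest AA array, at 13.45, and without the 3 arrays the highest was 12.63 and the difference 0.20 (limma, adjusted p = 0.28). In the other 4 pairs the 2 probe sets gave differences between -0.16 and 0.03. A test of whether the 5 differences are equal called 1367733_at (limma, adjusted p = 0.0245), as it did 6.53% of all probe sets. That call was lost without AA 1, ANA 2, ANA 8 or ANA 16, with adjusted p up to 0.0618.

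The other 6 genes of this group were not called. In HAD2/LAD2, 9 of the 10 probe sets had a negative difference, with a median of -0.14, and in P/NP all 10 did, with a median of -0.06, while the medians over all 15152 probe sets were 0.01 and -0.0067 and 55.9% and 46.3% of all had a positive difference. In HAD1/LAD1, AA/ANA and sP/sNP the positive differences of this group numbered 8, 8 and 9 of 10, with medians of 0.02, 0.14 and 0.03, where 52.3%, 50.7% and 56.4% of all were positive. The most negative in HAD2/LAD2 was that of Plekhb1, a membrane-binding protein with a pleckstrin homology domain, at -0.24. Gpr37, a receptor of oligodendrocytes, gave -0.17 there, and Sirt2, a deacetylase of the myelin sheath, -0.15. Aspa, which cleaves N-acetylaspartate, Qdpr, which recycles tetrahydrobiopterin, and Cnp, a phosphodiesterase of non-compact myelin, stayed between -0.12 and 0.18 in all pairs.

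The myelin lipid enzymes were not called in any pair. Ugt8, which makes galactosylceramide, gave differences of 0.25, -0.18, -0.23, 0.13 and 0.05, pairs in the order in which the opening lists them. Gal3st1, which turns it into sulfatide, gave 0.23, -0.14, -0.17, 0.05 and 0.06 in that order. Fa2h, which hydroxylates their fatty acids, gave -0.02, 0.13, -0.18, 0.05 and 0.04. Standard errors for these 3 genes lay between 0.083 and 0.14.

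The lineage transcription factors were not called either. Nkx2-2, which acts as precursors start to differentiate, gave differences from -0.15 (P/NP) to 0.21 (HAD1/LAD1). Sox10, which drives myelin genes, lay between -0.13 and 0.15, and Olig1 between -0.07 and 0.05. The Olig2 signals ran from 4.87 to 6.10 at 1379593_at and from 5.15 to 6.62 at 1398212_at over all lines, below the floor, and were not tested.

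**Figure D3:**
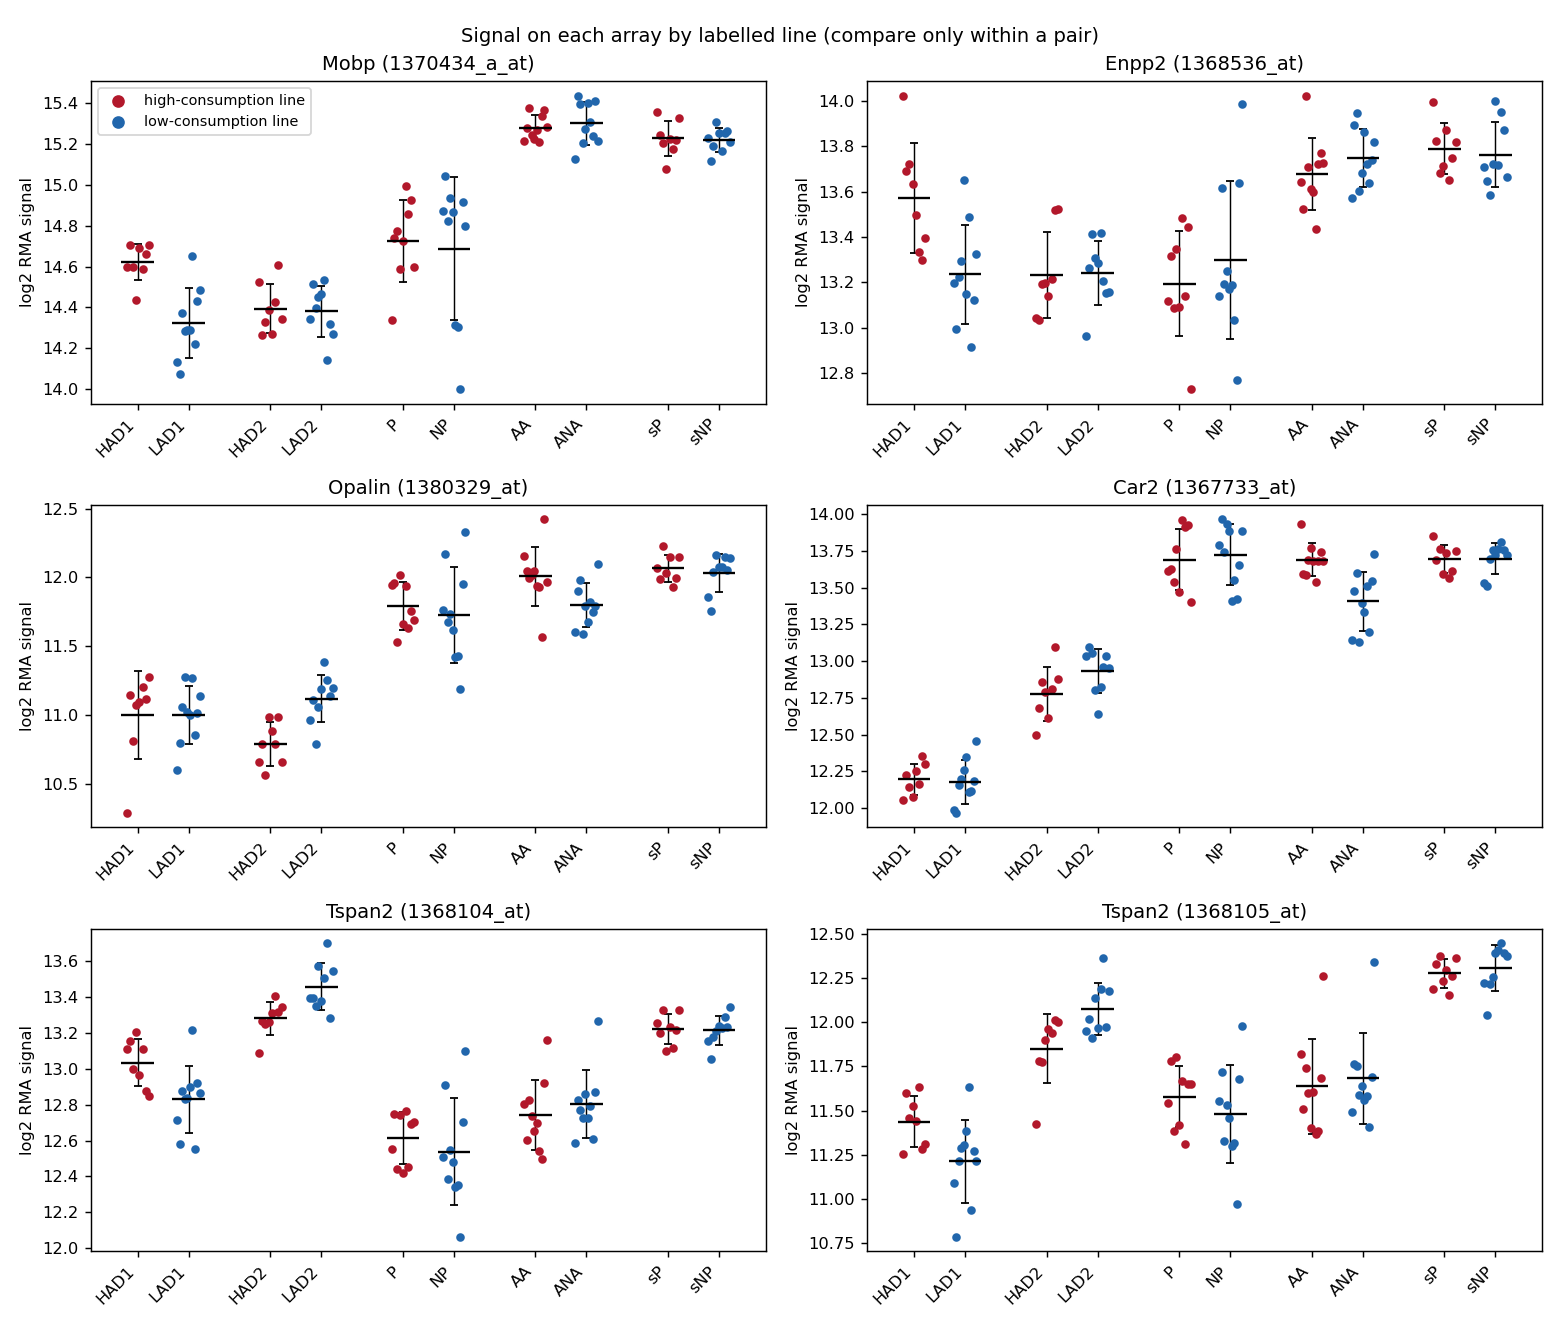
Log2 RMA signal on each array for the called probe sets of Mobp, Enpp2, Opalin and Car2 and for both probe sets of Tspan2, by labelled line, with the line's mean and SD (bars). At each, points of the 2 lines of a pair overlap, also in the pair in which the probe set was called.

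Enpp6 stood out among the genes of precursors and newly formed oligodendrocytes. It encodes a choline phosphodiesterase that, in mouse, marks oligodendrocytes that have just begun to form. The AA signals were lowest 8.62, median 9.36 and highest 9.67, against lowest 7.27, median 7.89 and highest 9.16 in ANA. Of the 10 AA arrays, 8 lay above every ANA array, and the highest ANA array was ANA 20. The difference was 1.3504 ± 0.19 (SE), which is 2.55-fold (limma, adjusted p = 2.9e-07).

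Without the 3 arrays that stood apart, the 8 AA signals ran from 8.62 to 9.67, all above the 9 ANA signals of 7.27 to 8.45. The difference was then 1.51, or 2.86-fold (limma, adjusted p = 2.16e-08). The test of whether the 5 pair differences are equal called Enpp6 (limma, adjusted p = 8.1e-06).

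In the other pairs Enpp6 was not called. The HAD1 signals were 10.30, 10.40 and 10.71, against 9.72, 10.09 and 10.89 in LAD1, and the HAD2 signals 9.38, 10.04 and 10.58, against 9.92, 10.33 and 10.55 in LAD2. The P signals were 7.54, 8.11 and 9.13, against 7.17, 8.61 and 9.68 in NP, and the sP signals 8.97, 9.13 and 9.56, against 8.76, 9.03 and 9.40 in sNP. The lines of these 4 pairs overlapped, with differences of 0.34, -0.25, -0.32 and 0.10.

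The RefSeq promoter of Enpp6 is shown because this gene had the largest difference of the 44 probe sets. It lies at chr16:52026679-52026978 on the minus strand of GRCr8, again from 250 bases before to 50 after the start. Capitals mark 1 copy of the SOX core, read here as CTTTGT, and 1 copy of CAGCTG. The first was found on either strand in 18.8% of all 33469 RefSeq promoters of this length and the second in 15.1%, and each in 6 of the 28 promoters (21.4%) matched to 26 of the listed genes. The motifs do not overlap, and a match is a description of the letters only.
Enpp6 promoter: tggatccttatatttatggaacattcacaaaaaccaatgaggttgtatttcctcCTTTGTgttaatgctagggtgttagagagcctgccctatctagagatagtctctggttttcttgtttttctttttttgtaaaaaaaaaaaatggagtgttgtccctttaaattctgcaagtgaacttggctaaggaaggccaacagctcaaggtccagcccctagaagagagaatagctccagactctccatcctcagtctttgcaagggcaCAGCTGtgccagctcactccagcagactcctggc

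The other precursor-stage genes were not called. Pdgfra, the growth factor receptor of precursors, gave differences from -0.05 to 0.14, and Cspg4, their surface proteoglycan, from -0.02 to 0.17. Bcas1, a marker of oligodendrocytes that are starting to myelinate, gave 0.20 in HAD1/LAD1 and -0.05 to 0.05 in the other pairs. The AA/ANA differences of these 3 genes were -0.04, 0.01 and -0.03.

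Of the genes of axon contact or related to Schwann cells (7 probe sets of 3 genes), Sh3tc2 was called in 3 pairs. It encodes an adaptor protein of endosomes, known for its part in myelination by Schwann cells of peripheral nerves. The HAD1 signals were lowest 6.92, median 7.29 and highest 7.63, against lowest 7.505, median 7.78 and highest 8.02 in LAD1. All 8 HAD1 arrays lay below the LAD1 median and 5 below every LAD1 array, and the difference was -0.49 ± 0.095 (SE; limma, adjusted p = 0.000184).

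In HAD2 the Sh3tc2 signals were lowest 7.36, median 7.79 and highest 7.93, against lowest 7.81, median 8.01 and highest 8.20 in LAD2. All 8 HAD2 arrays lay below the LAD2 median and 4 below every LAD2 array, and the difference was -0.30 ± 0.097 (SE; limma, adjusted p = 0.0476). This call was lost when any 1 of 11 of the 17 arrays was left out, with adjusted p up to 0.146, and with the pair fitted alone (limma, adjusted p = 0.0594) or with no filter on low signal (limma, adjusted p = 0.0609). It was also lost when sP 8 and sNP 2, arrays of another pair, were left out of the fit (limma, adjusted p = 0.0523).

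In arrays labelled AA the Sh3tc2 signals were lowest 6.83, median 6.99 and highest 7.55, against lowest 6.93, median 7.56 and highest 7.88 in ANA. All 10 AA arrays lay below the ANA median, and ANA 20 was the lowest ANA array. The AA median lies just below the floor of the filter, 7.02. The difference was -0.50 ± 0.089 (SE; limma, adjusted p = 8.05e-05), and -0.57 without the 3 arrays that stood apart (limma, adjusted p = 5.39e-06).

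In the last 2 pairs Sh3tc2 did not pass the test. The P signals were 6.55, 6.93 and 7.15, against 6.69, 7.005 and 7.39 in NP, a difference of -0.10. The sP signals were 6.89, 7.14 and 7.22, against 6.70, 6.88 and 7.13 in sNP, a difference of 0.20 in the other direction. The lines overlapped in both pairs. The Sh3tc2 means of P (6.90), NP (7.01) and sNP (6.90) lie below the floor of the filter. The 5 pair differences of Sh3tc2 were called unequal (limma, adjusted p = 0.000132).

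Markers of Schwann cells were set beside Sh3tc2. Of 12 listed, 4 genes with 5 probe sets were tested, and 1 was called in any pair, Pmp22 at 1 of its 2 probe sets, lower in HAD1 than in LAD1 (-0.45 ± 0.10, SE; limma, adjusted p = 0.00162). Its other probe set, 1370247_a_at, gave 0.21 in that pair (limma, adjusted p = 0.156). Of all probe sets, 4.09% were called in HAD1/LAD1. The mean signal of these markers ran from 9.53 to 9.71 in HAD1 and from 9.51 to 9.79 in LAD1, from 9.67 to 9.88 in HAD2 and from 9.70 to 9.82 in LAD2, and from 9.40 to 9.64 in AA and from 9.39 to 9.64 in ANA. Prx, a protein of Schwann cell myelin, averaged 7.10 ± 0.11 in HAD1 and 7.15 ± 0.12 in LAD1 (SD, n = 8 and 10). These Prx means lie close to the floor of the filter, 7.02, with arrays from 6.91 to 7.31 in HAD1 and from 6.90 to 7.34 in LAD1. The part of the Schwann cell markers in the Sh3tc2 differences was not tested.

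Nfasc, a cell adhesion protein of paranodes and nodes, was not called at any of its 5 probe sets, whose differences lay between -0.12 and 0.08. Its probe set 1388041_s_at was below the floor on every HAD1, LAD1, HAD2 and LAD2 array. Cntn2, an adhesion protein beside the paranodes, gave 0.19 in HAD2/LAD2 (limma, adjusted p = 0.091) and -0.07 to 0.11 in the other pairs.

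Over all 5 pairs, the average difference was called for 2 of the 44 probe sets, where 1.55% of all were called. Cldn11 1369609_at averaged 0.38 ± 0.063 (SE; limma, adjusted p = 1.57e-05) and was above zero in 5 of 5 pairs, in P/NP by 0.00041 only. The other Cldn11 probe set, 1376711_at, averaged 0.02 ± 0.027 (SE; limma, adjusted p = 0.948) and was not called. Sh3tc2 averaged -0.24 ± 0.042 (SE; limma, adjusted p = 6.46e-05) and was below zero in 4 of 5 pairs, 1 of them P/NP, where both means lie below the floor. Cldn11 1369609_at and Sh3tc2 were also called for the average of the 2 HAD/LAD pairs, at 0.67 and -0.39, where 5.22% of all were called. There Cldn11 1376711_at averaged 0.02 and was not called (limma, adjusted p = 0.932). The test for unequal differences called 4 of the 44, where it called 6.53% of all. These were Cldn11 1369609_at (limma, adjusted p = 3.83e-05), Enpp6, Sh3tc2 and Car2. Both called averages thus run over pair differences of unequal size.

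The directions of the 44 differed from pair to pair. Positive differences numbered 31 in HAD1/LAD1, 13 in HAD2/LAD2, 10 in P/NP and 30 in AA/ANA, with 37 in sP/sNP, where the shares of all probe sets with a positive difference were 52.3%, 55.9%, 46.3%, 50.7% and 56.4%. The medians of the 44 were 0.05, -0.05, -0.07, 0.05 and 0.04. Probe sets measured on the same arrays are not independent, so these are not counts of independent genes. Without P 10 and NP 8 the count in P/NP was 5, where 52.1% of all were positive. The count in AA/ANA was 26 without the 3 arrays that stood apart, where 49.5% of all were positive, and without sP 8 and sNP 2 the count in sP/sNP was 33, where 56.3% of all were.

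The mean signal over the 44 on each array showed no line apart from its partner. It was lowest 11.18, median 11.25 and highest 11.34 in HAD1, against 10.94, 11.19 and 11.36 in LAD1, and 10.86, 10.97 and 11.21 in HAD2, against 10.93, 11.01 and 11.12 in LAD2. It was 11.29, 11.59 and 11.78 in P, against 11.24, 11.64 and 12.10 in NP. The lines overlapped in each of these pairs. It was 11.54, 11.66 and 11.93 in AA, against 11.40, 11.61 and 11.78 in ANA, and 11.62, 11.72 and 11.94 in sP, against 11.59, 11.66 and 11.82 in sNP, again with overlap. In AA/ANA without the 3 arrays the AA values were 11.54, 11.65 and 11.79, against 11.40, 11.59 and 11.78 in ANA.

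Within a line the 44 spread most in P and NP, with a median SD of 0.26 against 0.13 to 0.18 in the other pairs, and over all probe sets 0.18 in P/NP against 0.11 to 0.15. The lowest mean over the 44 was that of P 10 in P and of NP 8 in NP, the arrays lowest in Th. NP 10 had the highest of NP, 12.10, and the lowest mean of 13 pan-neuronal markers, 12.10. In that pan-neuronal mean P 10 was again the lowest P array, at 12.28, while NP 8 was the highest NP array, at 12.96. The part of the dissection in this spread was not tested.

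**Figure D4:**
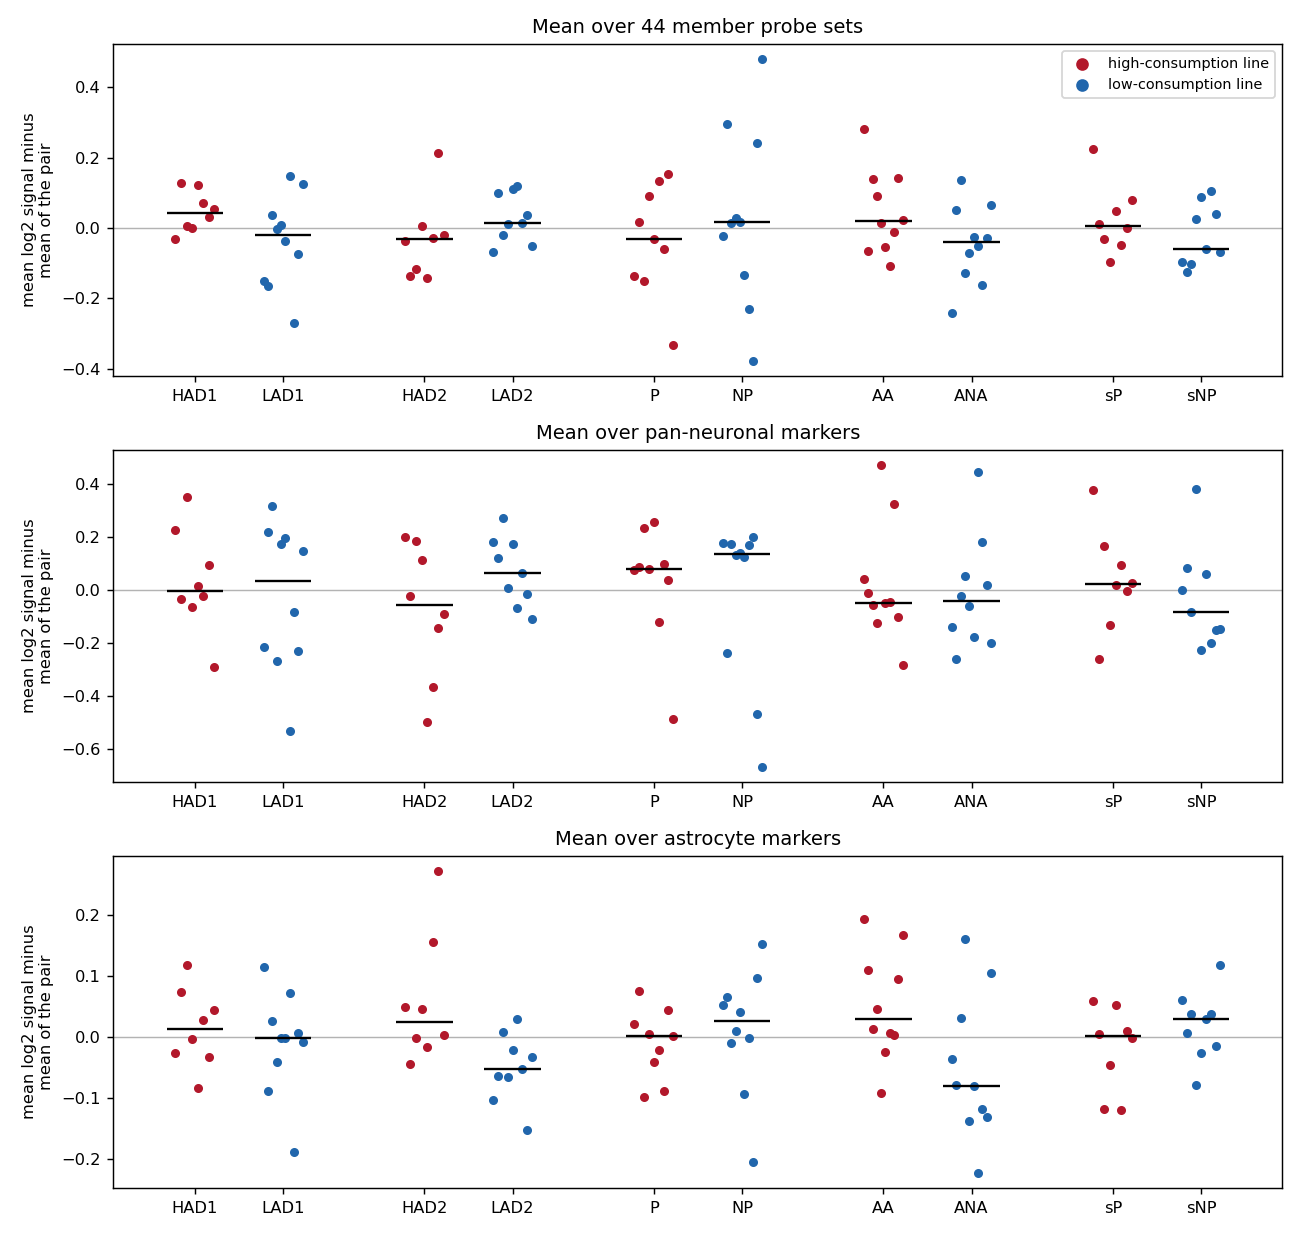
Mean log2 signal over the 44 tested probe sets, over the pan-neuronal markers and over the astrocyte markers on each array (points), less the mean of all arrays of the pair, by labelled line, with the line's median (bars). The 2 lines of each pair overlap in the mean of the 44, and the widest spread is that of NP, where 1 array is highest in the top panel and lowest in the middle one. In P, the array lowest in the top panel is also lowest in the middle one.

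Other genes of the lineage were taken from separate lists. Of 40 further oligodendrocyte genes, 42 probe sets of 32 genes were tested. In HAD1 against LAD1, 2 probe sets were called higher and 3 lower, where 4.09% of all were called. In HAD2 against LAD2, 3 were called higher and 6 lower, where 5.23% of all were. In AA against ANA, 3 were called higher and 0 lower, where 3.17% of all were. P/NP and sP/sNP had 0, where limma called 0% of all probe sets. Without the 3 arrays that stood apart, AA against ANA had 1 higher and 1 lower, where 3.86% of all were called. Their medians, 0.07, -0.03, -0.10, 0.06 and 0.04 with the pairs in the order of the opening, had the same signs as those of the 44, beside 0.0047, 0.01, -0.0067, 0.0015 and 0.0084 over all probe sets.

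Plekhh1 had the widest difference of that list. At 1395020_at it averaged 11.02 ± 1.55 in HAD1 and 7.09 ± 1.73 in LAD1 (SD), 10.53 ± 2.27 in HAD2 and 7.55 ± 0.22 in LAD2, and 10.59 ± 1.287 in AA and 7.84 ± 0.50 in ANA. The differences were 3.94, 2.99 and 2.76 (limma, adjusted p = 1.56e-06, 0.000374 and 0.000889). In P/NP and sP/sNP this probe set gave -0.77 ± 0.59 and -0.06 ± 0.62 (SE) and was not called. At its other probe set, 1384277_at, they were 0.0097, -0.34 and 0.0074, and the second was called lower (limma, adjusted p = 0.0132). The AA/ANA difference at 1395020_at was 3.05 without the 3 arrays (limma, adjusted p = 0.000364).

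Several genes of the list had opposite signs in the 2 HAD/LAD pairs. Gsn, the actin-severing protein gelsolin, gave -0.54 in HAD1/LAD1 (limma, adjusted p = 0.00179) and 0.67 in HAD2/LAD2 (limma, adjusted p = 5.56e-05). Zfp488, a transcriptional regulator of the lineage in mouse, gave -0.38 and 0.41 (limma, adjusted p = 0.00285 and 0.00117). Zfp536, a zinc finger protein, gave 0.45 and -0.42 at 1376910_at (limma, adjusted p = 0.000359 and 0.00109), with -0.47 to 0.23 at its 3 other probe sets in HAD1/LAD1.

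Most further calls of the list were in HAD2/LAD2. Lpar1, a receptor for lysophosphatidic acid, gave -0.37 at 1 of its 2 probe sets in HAD2/LAD2 (limma, adjusted p = 0.000873). Pllp, plasmolipin, a membrane protein of myelin, and Prr5l gave -0.42 and -0.49 in HAD2/LAD2 (limma, adjusted p = 0.0018 and 0.00945), and Pls1, an actin-bundling protein, gave -0.71 in HAD1/LAD1 (limma, adjusted p = 0.0229). Trim59 gave -0.44 in HAD2/LAD2 (limma, adjusted p = 0.00594) and, in the other direction, 0.34 in AA/ANA (limma, adjusted p = 0.0426), a call lost without the 3 arrays (0.31; limma, adjusted p = 0.0869). Zfp536 was also called in AA/ANA, at 1385453_at (0.47; limma, adjusted p = 0.0432), and not without the 3 arrays (limma, adjusted p = 0.0653).

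Of 16 further precursor genes, 14 probe sets of 10 genes were tested and 1 gene was called. Vcan, a proteoglycan of the extracellular matrix, was higher in HAD1 than in LAD1 by 0.56 and 0.53 at 2 of its 3 probe sets (limma, adjusted p = 0.00103 and 0.00105). The remaining one gave 0.14, and 4.09% of all probe sets were called in this pair. No precursor probe set of that list was called in the other 4 pairs with all arrays. Without the 3 arrays 1 was called higher in AA/ANA, where 3.86% of all were called.

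Enzymes of myelin lipids beyond the listed genes were called in 3 pairs. Of 16 probe sets of 11 sphingolipid and galactolipid enzymes, 1, 2 and 2 were called in HAD1/LAD1, HAD2/LAD2 and AA/ANA, and of 25 probe sets of 16 genes of cholesterol synthesis 2 were called in each of these pairs, where 4.09%, 5.23% and 3.17% of all were. In AA/ANA 3 and 2 were called without the 3 arrays, where 3.86% of all were. Among the first, Galc, which degrades galactosylceramide, was lower in HAD2 than in LAD2 by 0.30 on the log2 scale (difference -0.30; limma, adjusted p = 0.00465). Arsa, which removes the sulfate of sulfatide, was higher by 0.23 at 1389339_at in HAD1/LAD1 (limma, adjusted p = 0.0116). Its other probe set, 1395347_at, gave -0.12 in that pair and was not called. In HAD2/LAD2 1395347_at was higher by 0.26 (limma, adjusted p = 0.0243), while 1389339_at gave 0.0052 and was not called. At 1395347_at the LAD2 mean of 6.99 and the HAD1 mean of 6.94 lie below the floor of the filter. Degs1, a ceramide desaturase, gave -0.24 and 0.25 at 2 probe sets in AA/ANA (limma, adjusted p = 0.00148 and 0.0038), and -0.27 and 0.31 without the 3 arrays, both called. Of the cholesterol genes, Lss, lanosterol synthase, gave -0.59 in HAD1/LAD1 (limma, adjusted p = 7.63e-06) and 0.83 in HAD2/LAD2 (limma, adjusted p = 4.46e-10) at 1368086_a_at. Sc5d, a sterol desaturase, was higher in AA than in ANA by 1.24 and 0.96 at 2 of its 3 probe sets (limma, adjusted p = 4.81e-15 and 2.17e-11), with 0.02 at the other, and in HAD1/LAD1 that other one, 1389111_at, gave -0.21 (limma, adjusted p = 0.00454). Without the 3 arrays the Sc5d differences in AA/ANA were 1.351 and 1.02 (limma, adjusted p = 7.66e-23 and 8.65e-15).

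Among 27 probe sets of 15 genes of the node and paranode, 2 were called, both in HAD2/LAD2, where 5.23% of all were. Epb41l3, a scaffold of the paranode, gave -1.35 (limma, adjusted p = 0.000187) with -0.47 at its other probe set. Nrcam, a cell adhesion protein of nodes, gave 0.31 (limma, adjusted p = 0.00425), with 0.10 and -0.26 at its other probe sets.

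**Figure D5:**
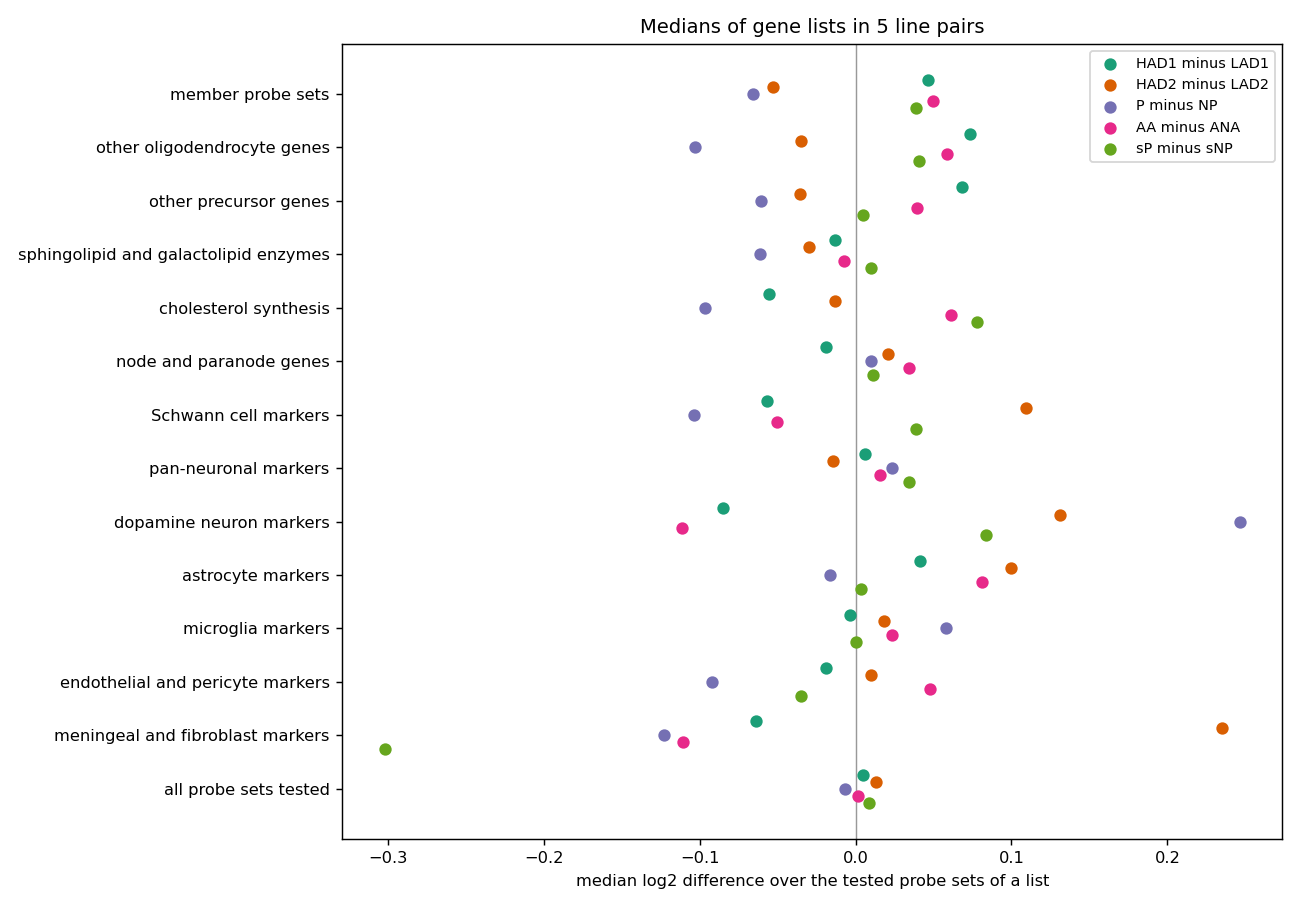
Median log2 difference, high-consumption minus low-consumption line, over the tested probe sets of each gene list (rows) in the 5 line pairs (colours). The medians of the 44 and of the further oligodendrocyte genes have the same sign in each pair, and the medians farthest from zero are those of the meningeal and fibroblast markers in sP minus sNP (-0.30) and of the dopamine neuron markers in P minus NP (0.25).

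Markers of other cell types were measured beside these results. Of all probe sets, 4.09%, 5.23% and 3.17% were called in HAD1/LAD1, HAD2/LAD2 and AA/ANA, and 3.86% in AA/ANA without the 3 arrays. Of 18 astrocyte probe sets, 5 were called higher in AA than in ANA (3 of Glul, 1 of Aqp4 and 1 of Slc1a2, whose means of 6.61 and 6.35 lie below the floor) and 0 lower, with a median difference of 0.08, and their mean ran from 11.28 to 11.57 in AA and from 11.15 to 11.53 in ANA. Without the 3 arrays, 4 were called higher, and the mean ran from 11.28 to 11.48 in AA and from 11.15 to 11.53 in ANA. In HAD1/LAD1 1 was called lower (the same Slc1a2 probe set, with a HAD1 mean of 6.16 and a LAD1 mean of 6.60) and in HAD2/LAD2 1 higher (Slc1a3). Of 18 pan-neuronal probe sets, 1 was called lower in HAD2/LAD2 and 1 higher in AA/ANA, at different probe sets of Map2. In HAD2/LAD2 1368411_a_at gave -1.98 and 1388152_at, not called, 0.0084. In AA/ANA 1388152_at gave 0.18 and 1368411_a_at, not called, 0.30. Of 12 microglial probe sets, 1 (Cx3cr1, lower) was called in HAD1/LAD1 and 2 (both P2ry12, higher) in HAD2/LAD2. Of 16 endothelial and pericyte probe sets, 2, 4 and 3 were called in HAD1/LAD1, HAD2/LAD2 and AA/ANA. In AA/ANA without the 3 arrays, 1 pan-neuronal and 3 endothelial and pericyte probe sets were called.

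Of 15 dopamine neuron and 11 meningeal and fibroblast probe sets limma called 0 in every pair, but many shared a sign. Positive differences among the dopamine neuron probe sets numbered 2 in HAD1/LAD1, 14 in HAD2/LAD2, 11 in P/NP, 3 in AA/ANA and 13 in sP/sNP, with medians of -0.09, 0.13, 0.25, -0.11 and 0.08. In the first 4 pairs these medians had the sign opposite to those of the 44, and in sP/sNP the same sign. Without P 10 and NP 8 the P/NP median was 0.29, with 14 positive, and without the 3 arrays the AA/ANA median was -0.10, with 4 positive. The pan-neuronal medians, 0.0060, -0.01, 0.02, 0.02 and 0.03 with the pairs in the same order, had the sign opposite to the 44 in P/NP only. The astrocyte medians, 0.04, 0.10, -0.02, 0.08 and 0.0037, had it in HAD2/LAD2 only. Among the meningeal and fibroblast probe sets, 2, 10, 3, 1 and 0 were positive, pairs in the order of the opening, with medians of -0.06, 0.24, -0.12, -0.11 and -0.30. Without P 10 and NP 8 their P/NP median was -0.21, and without the 3 arrays their AA/ANA median was -0.21. The part of other cell types in the myelin gene differences was not tested.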

How the data were processed

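Each of 91 Affymetrix arrays held ventral tegmental area RNA of 1 rat, and per the labels' protocols 25 ng of total RNA was amplified in 2 cycles. The authors deposited log2 signals for 31099 probe sets, made with RMA per the submitters' processing notes. RMA corrects background, normalizes quantiles and summarises probes. For RMA, the version and which arrays were normalized together were not given in the sources used here. Names came from the platform's annotation, where 20826 had 1 gene symbol, 436 several and 9780 none, and 57 control probe sets were left out. By gene ID, 20758 matched RefSeq gene names (GRCr8), which changed 0 symbols.

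Lines and animal numbers came from the titles. A probe set was tested if its mean in any of the 10 lines reached the 40th percentile of all values (7.02), which left 15152 probe sets of 11087 genes. All arrays entered 1 limma fit (lmFit, eBayes) with a mean for each of 10 lines, leaving 81 residual degrees of freedom. Contrasts were the 5 pair differences, their average and the difference of the 2 HAD/LAD pairs, with a moderated F test (4 numerator degrees of freedom) that the 5 are equal. Tests were 2-sided, adjusted within a contrast, and called at an adjusted p under 0.05. The number of arrays limits the precision: the median standard error was 0.071 to 0.077. For each probe set all lines share 1 estimate of the spread, so standard errors do not measure a pair's own spread. The median standard error was 0.072 in P/NP and 0.077 in sP/sNP, while the median SD within a line was 0.18 and 0.11. The fit was tested on simulated data. No columns were identical, and the highest correlation of 2 arrays was 0.997.

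The genes named were all 33 listed, with values for those called, and of each other list called genes by adjusted p. Members, lists and tests were chosen with earlier results of these data known. Alternatives were no filter, the 60th percentile (8.58), quantile normalization, centring, each pair alone, array weights, a robust prior with a trend, 1 probe set or the mean of probe sets per gene, a replicate block, a fold threshold, the average of the 2 HAD/LAD pairs, arrays that stood apart left out and each array left out. The clustering of whole profiles and of signal distributions (Ward), and leaving out sP 8 and sNP 2, were chosen after seeing the data. Software used was limma 3.58.1 with data.table (1.17.8) under R 4.3.3, and matplotlib 3.10.9, pandas 2.3.3 and numpy 2.4.6 under Python 3.11.15.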

Additional observations from a re-analysis of the deposited data

Results flagged for a closer look

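Single arrays lay apart from their line at 7 of 80 combinations of a named probe set or member mean with a line, by a gap test that chance meets in about 1 of 20. Mobp 1370434_a_at was 14.44 on HAD1 25, against 14.59 to 14.70 on the other HAD1 arrays. Opalin was 10.29 on HAD1 21, against 10.81 to 11.27. Cldn11 1369609_at was 8.48 on ANA 20, against 7.53 to 8.03 on the other ANA arrays, and 9.08 on sP 2, against 8.45 to 8.66 on the other sP arrays. Sh3tc2 was 7.55 on AA 5, against 6.83 to 7.17 on the other AA arrays, and 6.93 on ANA 20, against 7.45 to 7.88 on the other ANA arrays. The mean over the 44 probe sets was 11.21 on HAD2 9, against 10.86 to 11.01 on the other HAD2 arrays, and HAD2 9 was also the highest HAD2 array in the means of the astrocyte and the microglial markers. ANA 20 is 1 of the 3 arrays that stood apart over whole profiles.

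The line difference depended on the pair by limma's moderated F test for Cldn11 1369609_at (adjusted p = 3.83e-05), Car2 1367733_at (0.0245), Enpp6 (8.1e-06) and Sh3tc2 (0.000132). Between the 2 HAD/LAD pairs, the difference of HAD1/LAD1 exceeded that of HAD2/LAD2 by 0.91 for Cldn11 1369609_at, 0.38 for Tspan2 1368104_at and 0.45 for Tspan2 1368105_at on the log2 scale (limma, adjusted p = 0.00129, 0.0366 and 0.0415).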

How the results depend on the processing

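With array weights, limma called 7 of the 44 probe sets in HAD1/LAD1, 4 in HAD2/LAD2, 1 in P/NP, 4 for the average, 7 for the difference of the HAD/LAD pairs and 20 for unequal differences, where 6.86%, 7.66%, 10%, 6.98%, 6.99% and 32.4% of all were called. HAD2/LAD2 had 1 call with no filter (3.73% of all called), at the 60th percentile (5.93%) or with the fold threshold (2.9%). It had 1 also with the pair alone (5.04%) or without sP 8 and sNP 2 (5.13%, chosen after seeing the data). AA/ANA had 2 with the pair alone, where 1.3% of all were called. The average had 1 call at the 60th percentile (1.76% of all), with 1 probe set per gene of highest mean (1.4%) or with the fold threshold (0.271%). The difference of the HAD/LAD pairs had 1 call with 1 probe set per gene (4.14% of all) and 5 without P 10 and NP 8 (4.82%). Leaving out each array in turn gave 3 to 4 calls in HAD1/LAD1, 0 to 2 in HAD2/LAD2, 0 to 0 in P/NP, 3 to 6 in AA/ANA, 0 to 0 in sP/sNP, 2 to 2 for the average, 3 to 6 for unequal differences and 1 to 5 for the difference of the HAD/LAD pairs. The shares of all probe sets called were not counted for these fits, so the ranges alone say nothing particular to the 44.

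Of 250 comparisons of a called probe set's result with an alternative, 231 kept their call and 19 lost it, and 0 changed direction. The 250 include results of the test for unequal differences, which have no direction, and alternatives that left out only arrays of other pairs. They do not include leaving out each array in turn. The Cldn11 1369609_at calls were lost with 1 probe set per gene, which takes 1376711_at in its place, and the Mobp call of HAD1/LAD1 with the mean of its probe sets. Sh3tc2 was below the 60th percentile and not tested there. Of the 44, positive differences numbered 29, 14, 8, 31 and 39 with quantile normalization and 30, 13, 8, 30 and 39 with centring, pairs in the order of the opening, where 46.1%, 51.1%, 43.0%, 49.1% and 57.4% and 47.4%, 52.3%, 38.5%, 54.2% and 61.3% of all were positive. The median over all probe sets turned negative in HAD1/LAD1 with both scalings (-0.0083 and -0.0055) and in AA/ANA with quantile normalization (-0.0020) or without the 3 arrays (-0.0011), and positive in P/NP without P 10 and NP 8 (0.0030). The replicate block gave 0 calls in P/NP and 0 in sP/sNP, and the shares of all called were not counted there. Same-numbered arrays correlated over 0.1 in 6 of 9 pairs of P and NP (-0.71 to 0.70) and 1 of 8 of sP and sNP (-0.37 to 0.29). Differently numbered arrays were not compared with these, so the check cannot decide whether the numbers pair the animals. The lines of the other pairs share no numbers. Probe sets near the floor are limited by signal over background. Other causes of these changes were not tested.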
